A study of Homo sapiens with 12 samples.

Results

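The comparison described here is of AsPC-1 cells carrying a CRISPR guide against *BACH1* (sgBACH1, 3 libraries) with AsPC-1 cells carrying a control guide (sgCont, 3 libraries). AsPC-1 is an established human pancreatic ductal adenocarcinoma line. Per the labels' protocols the guide was delivered with Cas9 by lentivirus from the lentiCRISPR v2 vector, and infected cells were selected in 10 µg/ml puromycin. The genotype label of sgBACH1 is a BACH1 knock-out and that of sgCont is control, and both groups went through the same medium with 20% fetal bovine serum. No source used here gives the time between infection and harvest, the control guide, or whether the selected cells were a pool or a clone, so 1 guide stands for the knockout and no other guide checks it. The genes described are all that passed an expression filter, 14469 of 57820 gene identifiers in the table. Of 1409 genes in 60 lists by function, 1099 were among them. The other 6 of the study's 12 libraries compare a 24 h siRNA against *BACH1* (siBACH1) with a control siRNA (siCont) in the same line, and are used only beside the knockout.

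BACH1 is a heme-binding repressor that pairs with small MAF proteins and sits on the DNA elements that NRF2 uses to switch on antioxidant, heme-breakdown and iron-storage genes. When heme rises or the repressor is lost, those genes are freed, with heme oxygenase 1 as the best known example. In tumours of epithelial origin BACH1 is also known for regulating metabolism, invasion and the choice between epithelial and mesenchymal states.

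The guide is printed because its position decides what the RNA counts of *BACH1* can show. The capitals mark the protospacer adjacent motif (PAM) that Cas9 needs.
BACH1 guide: ccactcaagaatcgtaggccAGG
It matched chr21:29321457-29321479 (GRCh38, plus strand) in exon 2 of 5, the first of 4 coding exons, and the cut falls in codon 65 of 736. It matches 5 of the 13 annotated *BACH1* transcripts. *BACH1* (ENSG00000156273.11, chr21:29194071-29630751, plus strand, GRCh38) stood at 218, 198 and 185 CPM in sgBACH1 and 268, 294 and 276 CPM in sgCont. The groups did not overlap, and the fall from 279 ± 13.2 to 201 ± 16.6 CPM (SD, n = 3 per group) is a log2 fold change of -0.48 ± 0.08 (SE shown; adjusted p by edgeR = 4.48e-05). Permuting the 6 libraries exactly (two-sided) gave p = 0.1, which no grouping of 3 and 3 can undercut. Reads counted anywhere in the gene include transcripts with a small insertion or deletion at the cut, so this level is not a measure of intact protein.

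The motif that BACH1, NRF2 and small MAF proteins share has the core TGACNNNGC. The stretches below come from promoters of strongly raised glutathione and NADPH genes, selected from the genes that hold it. *STRA6* (log2 2.183) and *DHRS9* (1.707), of retinoid handling, hold it too, rose more than *ME1* (1.702) and are not printed. Another match in the *ME1* promoter is also left out. The promoters are from RefSeq (GRCh38.p14, 250 bases before to 50 after the gene start), and the capitals mark the match.
GPX2 promoter: atccccaggaTGACTTAGCaaaaacaggt
GCLM promoter: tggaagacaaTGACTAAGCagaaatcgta
ME1 promoter: tctcctgccaTGACTCAGCgcttctcgca
They lie at chr14:64942849-64942877 (plus strand), chr1:93909446-93909474 (plus strand) and chr6:83431170-83431198 (minus strand). Searched on both strands, TGACNNNGC occurred in 13.3% of all 35116 promoters in the table and in 14.5% of the 14449 promoter windows of tested genes. It occurred in 15.0% of windows of genes that rose, 14.0% of genes that fell and 14.6% of genes not called, and in 13.8% of those of genes with a called log2 rise above 1. The stricter TGACTCAGC, which is contained in the first motif, was in 0.561% of all promoters, 0.519% of windows of tested genes, 0.677% of genes that rose and 0.555% of genes that fell. Of windows of genes with a called log2 rise above 1 it was in 1.4% (7 of 501), and of those with a called fall past -1 in 0.585% (3 of 513). Of 14469 tested genes 9938 matched a promoter. A match describes letters and is not a binding site.

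Total counts per library were 16088094 to 20624435 in sgBACH1 and 14107198 to 18773195 in sgCont. Genes with at least 1 count numbered 23452 to 25502 in sgBACH1 and 20780 to 22503 in sgCont. Of the 14469 genes tested with edgeR, 23.5% were called at an adjusted p below 0.05: 11.3% rose (1629 genes) and 12.3% fell (1778 genes). The groups did not overlap in 36.5% of genes. Among list members 480 of 1099 were called (43.7%), 266 upwards and 214 downwards, and their median log2 fold change was 0.05 against 0.0055 for all tested genes. Lists are described below by such counts and medians, which compare with these shares. The labels do not say that replicates were separate cultures, so the p-values rest on how far these libraries vary, and that variation may be technical. With bulk RNA, fewer cells with a transcript and less transcript per cell cannot be told apart.

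Of the markers taken for ductal carcinoma cells, some were abundant and others low in both groups. *KRT19*, *EPCAM* and *SOX9* averaged 2357, 584 and 116 CPM in sgBACH1 and 2945, 400 and 76.0 CPM in sgCont. CPM are counts relative to library size scaled by TMM. The keratin *KRT7*, another such marker, averaged only 3.11 CPM in sgBACH1 and 11.0 CPM in sgCont. The ductal chloride channel *CFTR* had 5 counts over sgBACH1 and 0 over sgCont. Of 14 fibroblast and smooth muscle markers only 2 passed the filter, and the 13 without *LUM* summed to 31 to 40 counts a library in sgBACH1 and 21 to 57 in sgCont. Blood and endothelial markers without *LYZ* and *CD14* summed to 20 to 34 counts in sgBACH1 and 34 to 42 in sgCont. *LUM*, lumican, and *LYZ*, lysozyme, which stood far above these sums in both groups, are described below. *CD14* was called with a minimum mean log2 CPM of 1, with DESeq2, without sgCont replicate 2 or in a fit of all 12 libraries.

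Some changes clustered along chromosomes. Tested genes were cut into 143 windows of about 100 neighbours, of which 6 on chromosomes 19 and X had a median log2 fold change of 0.35 to 0.74 and 7 on chromosomes 3, 12 and 16 had one of -0.48 to -0.33. These shifted windows hold 1252 tested genes, 571 of them called, and 47 of the 480 called list members. The part that position plays in those genes' changes was not tested, so genes in such windows are named as such below and where a refit without them moves a list count by over 1.5 times the refitted count follows it. Counts and calls that another fit or filter moves as far or ends are given in the same place. Windows short of the 0.3 limit go unnamed below. Among them are those of *LUM* (median -0.29), *CLDN1* (-0.28) and *HNF4A* (0.21).

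**Figure D1:**
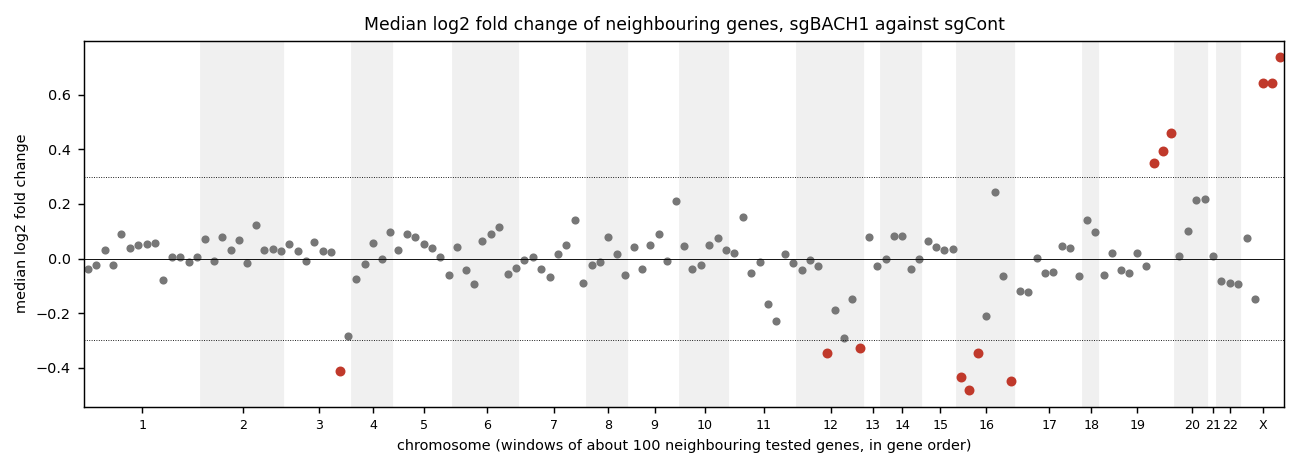
Median log2 fold change (sgBACH1 against sgCont, y axis) of windows of about 100 neighbouring tested genes in gene order along each chromosome (x axis). Red points are the 13 windows beyond 0.3 in either direction (dotted lines), on chromosomes 3, 12, 16, 19 and X, and the other windows lie between the lines.

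Relatives and partners of BACH1 moved in both directions. *NFE2L3*, a transcription factor of the NRF family, was at 5.87, 6.59 and 6.51 CPM in sgBACH1 and 24.8, 24.9 and 23.9 CPM in sgCont. No library of 1 group reached the other, and the log2 fold change was -1.95 ± 0.19 (SE shown; adjusted p by edgeR = 2.00e-08). *NFE2L2*, which encodes NRF2, rose from 123 ± 6.49 to 169 ± 16.3 CPM (SD, n = 3 per group, log2 0.45 ± 0.09). Its inhibitor *KEAP1* averaged 122 CPM in sgBACH1 and 118 CPM in sgCont with no call. The small MAF gene *MAFG* rose (log2 0.39) while *MAFF* (-0.97) and *NFE2L1* (-0.39) fell. In all 9 tested members of this list 2 rose, 4 fell and 3 did not pass, and the median log2 fold change was 0.05. *BACH2*, the lymphoid paralogue, had 8 counts over sgBACH1 and 2 over sgCont and was not tested. Calls were lost for *MAFG* without sgBACH1 replicate 1, 2 or 3 or sgCont replicate 1. The list of BACH, NRF and small MAF factors had 1 rising without sgBACH1 replicate 1, 2 or 3 or sgCont replicate 1.

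Heme breakdown rose at its first step. *HMOX1*, the heme oxygenase that opens the heme ring (ENSG00000100292.12, chr22:35380361-35394214, plus strand), stood at 452, 459 and 511 CPM in sgBACH1 and 11.3, 6.33 and 9.37 CPM in sgCont. No control library came near a knockout library (log2 5.6998 ± 0.13, SE shown; adjusted p by edgeR = 2.93e-20). Its constitutive relative *HMOX2*, in a shifted window of chromosome 16 with a median of -0.48, fell (log2 -0.39). At the next step the biliverdin reductases went opposite ways: *BLVRA* rose from 22.2 ± 4.44 to 45.1 ± 1.59 CPM and *BLVRB* fell from 80.6 ± 10.4 to 64.8 ± 4.99 CPM (SD, n = 3 per group, log2 1.02 ± 0.15 and -0.32 ± 0.11). *ABCG2*, an exporter of porphyrins and drugs, rose by 1.13 ± 0.09. Of 13 tested members 4 rose, 3 fell and 6 did not pass (median log2 fold change 0.05). For heme synthesis the counts were 3 rising and 1 falling of 12: *ALAS1*, the rate-limiting enzyme, rose (log2 0.54) and *UROS* fell (-0.77). Calls were lost for *BLVRB* without sgBACH1 replicate 1, 2 or 3 or sgCont replicate 1 or 3. The list of heme breakdown and heme transport had 1 falling without sgBACH1 replicate 1 or 3 or sgCont replicate 3. The list of heme synthesis had 1 rising without sgBACH1 replicate 1 or 2, and 1 rising refitted without genes in shifted windows.

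Both ferritin chains, which store iron, rose. *FTH1*, the ferritin heavy chain, stood at 2914, 2969 and 2816 CPM in sgBACH1 and 805, 736 and 849.9 CPM in sgCont, and the groups lay far apart (log2 1.86 ± 0.07, SE shown; adjusted p by edgeR = 2.18e-16). *FTL*, the light chain, rose from 1029 ± 59.2 to 2532 ± 72.8 CPM (SD, n = 3 per group, log2 1.299), in a shifted window of chromosome 19 with a median of 0.39. Ferritin genes have many processed copies in the genome, which makes their counts uncertain. *SLC40A1*, the iron exporter ferroportin, rose (log2 1.12 ± 0.11), *ACO1*, an iron sensor, rose by 0.36, and the ferric reductase *STEAP3* fell (-0.98). The transferrin receptor *TFRC*, at 662, 650.2 and 636 CPM in sgBACH1 and 630.3, 640.1 and 558 CPM in sgCont, was not called. In the iron list 4 rose, 2 fell and 9 did not pass, and the median log2 fold change was 0.09 among 15 members. The list of iron storage, transport and sensing had 1 falling refitted without genes in shifted windows.

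Both subunits of the first enzyme of glutathione synthesis rose. *GCLM* (ENSG00000023909.5, chr1:93885205-93909456, minus strand), the modifier subunit of glutamate-cysteine ligase, stood at 117, 121 and 119 CPM in sgBACH1 and 7.39, 13.9 and 8.55 CPM in sgCont. Its catalytic partner *GCLC* stood at 171, 159.9 and 157 CPM in sgBACH1 and 70.7, 73.5 and 62.5 CPM in sgCont. Both sets of libraries were apart, with log2 fold changes of 3.596 ± 0.16 and 1.24 ± 0.09 (SE shown; adjusted p by edgeR = 1.18e-14 and 1.13e-10). *SLC7A11*, which brings in cystine, rose from 116 ± 8.905 to 233 ± 17.2 CPM (SD, n = 3 per group, log2 1.01), and *GLRX*, glutaredoxin, by 0.75. *GSS*, the glutathione synthetase of the second step, and glutathione reductase, *GSR*, were not called (log2 0.04 and 0.19). Of 12 tested members 4 rose, 0 fell and 8 did not pass (median log2 fold change 0.11). *GSR* was called with DESeq2.

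Among enzymes that use glutathione the change was concentrated in 1 gene by size. *GPX2*, the gastrointestinal glutathione peroxidase (chr14:64939152-64942905, minus strand), stood at 229.7, 189 and 188 CPM in sgBACH1 and 4.39, 3.52 and 3.595 CPM in sgCont, a log2 fold change of 5.71 ± 0.13 (SE shown; adjusted p by edgeR = 3.25e-20). *MGST1*, a membrane transferase, rose by 0.43, while *GPX4*, which protects membranes from lipid peroxidation, and *GSTP1* were not called (0.16 and 0.15). Of 14 tested members 2 rose, 0 fell and 12 did not pass (median log2 fold change 0.15). In the thioredoxin system *TXN* rose from 143 ± 10.9 to 224 ± 12.1 CPM (SD, n = 3 per group, log2 0.65), *PRDX1* rose by 0.35, *MSRA*, a methionine sulfoxide reductase, fell (-0.49), and *TXNRD1*, thioredoxin reductase, was not called (-0.13). The whole list had 2 rising and 2 falling of 14. The list of glutathione peroxidases and transferases had 4 rising without sgCont replicate 2, and 4 rising with limma-voom or with the replicate block, and 1 falling without sgBACH1 replicate 2. The list of thioredoxin and peroxiredoxin system had 1 falling without sgBACH1 replicate 1, 2 or 3 or sgCont replicate 3.

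Reductases and oxidases of quinones, aldehydes and carbonyls rose more widely. Of 23 tested members 14 rose, 2 fell and 7 did not pass (median log2 fold change 0.49). *AKR1C1*, an aldo-keto reductase, stood at 257, 239 and 249.5 CPM in sgBACH1 and 57.5, 56.9 and 73.4 CPM in sgCont, and *AKR1C2* and *AKR1C3* rose with it (log2 2.01 and 0.97); these 3 are near-identical and may share reads. *AKR1B10*, which reduces retinal and lipid aldehydes, rose from 4.61 ± 1.47 to 35.04 ± 2.81 CPM (SD, n = 3 per group, log2 2.92 ± 0.21). *NQO1*, the quinone reductase, stood at 1501, 1568 and 1492 CPM in sgBACH1 and 734, 716 and 688 CPM in sgCont (log2 1.09 ± 0.06), and *EPHX1*, epoxide hydrolase, rose by 1.24 ± 0.08. *AKR1B1*, aldose reductase, had 0 counts over sgCont and 95 over sgBACH1, at least 29.8-fold higher with a floor of 3 counts for a group's sum; it was chosen after its values were seen. *ALDH1A3*, a retinaldehyde dehydrogenase, fell from 1442 ± 13.4 to 846 ± 65.3 CPM (SD, n = 3 per group, log2 -0.77).

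Some of the genes that supply NADPH to these reactions rose too. *TKT*, transketolase of the pentose phosphate pathway, stood at 992, 1062 and 1106 CPM in sgBACH1 and 426, 406 and 462 CPM in sgCont, a rise of 1.29 ± 0.07 on the log2 scale (SE shown; adjusted p by edgeR = 7.92e-13). Malic enzyme *ME1*, whose promoter stretch is printed above, rose from 14.03 ± 2.48 to 45.5 ± 3.06 CPM (SD, n = 3 per group, log2 1.702 ± 0.15). *IDH1* rose by 0.38 and the mitochondrial transhydrogenase *NNT* fell (-0.43), while *PGD*, of the oxidative steps of the pathway, was not called. Of 13 tested members 3 rose, 1 fell and 9 did not pass (median log2 fold change 0.12). *ABCC2*, which exports glutathione conjugates and bilirubin, stood at 272, 239 and 282 CPM in sgBACH1 and 49.3, 52.01 and 47.6 CPM in sgCont (log2 2.41 ± 0.09), whereas *ABCC3*, with overlapping substrates, was not called and *ABCA1*, the cholesterol efflux pump, fell (-2.103). The list of NADPH supply and pentose phosphate pathway had 2 falling with DESeq2 or in a fit of all 12 libraries.

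**Figure D2:**
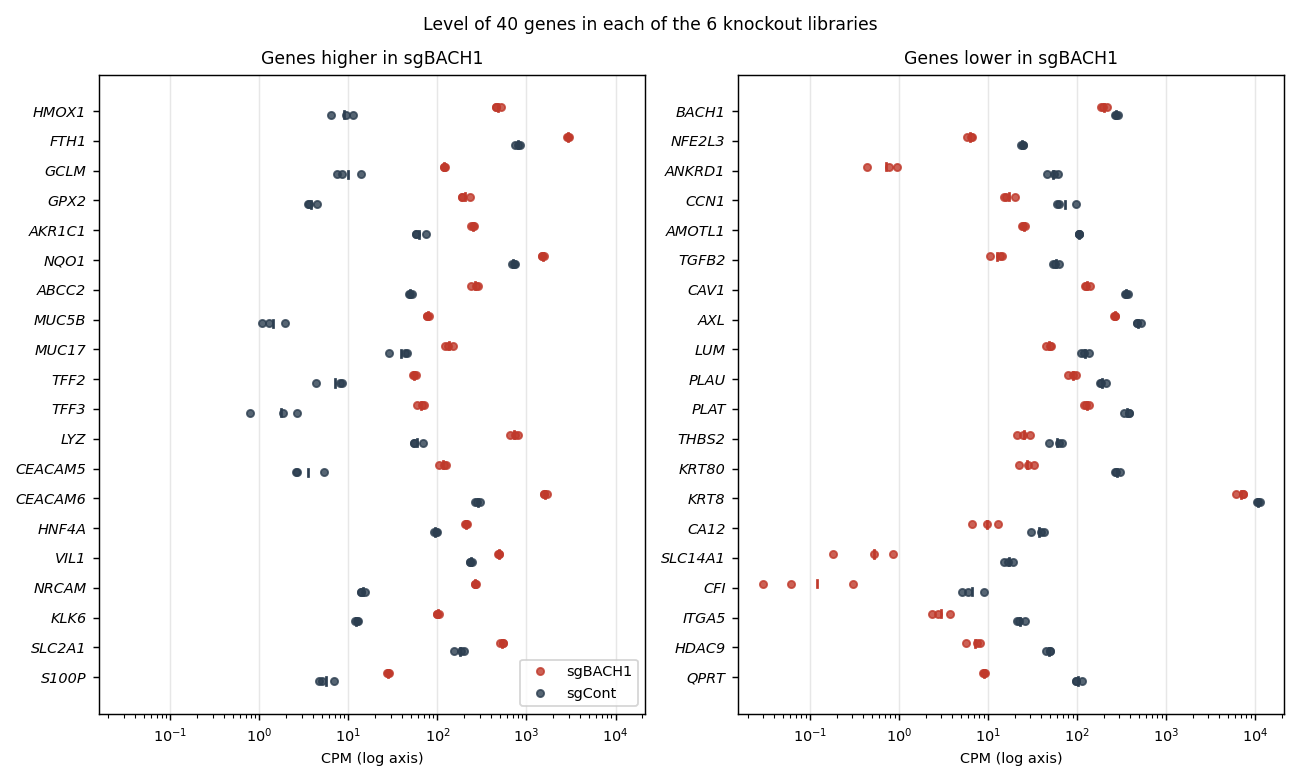
CPM (x axis, log scale) of 40 genes in each of 3 sgBACH1 libraries (red) and 3 sgCont libraries (dark), with a short bar at each mean and values of 0 drawn at 0.03. The 20 genes at left are higher and the 20 at right lower in every sgBACH1 library than in any sgCont library, with *BACH1* itself among the smallest differences.

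Mucosal secretory genes showed some of the largest rises. *MUC5B*, a gel-forming mucin (chr11:1223066-1262172, plus strand), stood at 76.3, 76.2 and 79.9 CPM in sgBACH1 and 1.93, 1.27 and 1.06 CPM in sgCont. Its rise of 5.74 ± 0.18 on the log2 scale (SE shown; adjusted p by edgeR = 3.75e-17) left no overlap between groups. *MUC17*, a membrane mucin of the intestine, stood at 148, 131 and 120.2 CPM in sgBACH1 and 45.6, 28.5 and 43.5 CPM in sgCont (log2 1.76 ± 0.13), *MUC5AC*, the gastric mucin, rose from a low 0.232 to 1.23 CPM, and *MUC1* rose by 0.38. *MUC13* went the other way, from 179.7 ± 7.51 to 91.6 ± 12.7 CPM (SD, n = 3 per group, log2 -0.97 ± 0.09). Of 7 tested members 4 rose, 1 fell and 2 did not pass (median log2 fold change 0.39), and *MUC2*, *MUC4*, *MUC6* and *MUC16* did not pass the filter. Calls were lost for *MUC5AC* without sgBACH1 replicate 1, 2 or 3 or sgCont replicate 1 or 2; *MUC1* without sgBACH1 replicate 1. *MUC5AC* stood at 2.9998 without sgCont replicate 3. *MUC5AC* lost its call with no filter or in a fit of all 12 libraries. *MUC1* lost its call in a fit of all 12 libraries. The list of mucins had 2 rising without sgBACH1 replicate 1, and 2 rising in a fit of all 12 libraries.

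The trefoil peptides, small secreted proteins that stabilise mucus and help epithelia repair, rose together. *TFF3* stood at 67.7, 70.9 and 59.3 CPM in sgBACH1 and 2.63, 0.774 and 1.83 CPM in sgCont. *TFF2* stood at 53.9, 57.2 and 52.9 CPM in sgBACH1 and 4.34, 8.02 and 8.55 CPM in sgCont. *TFF1* stood at 12.8, 9.64 and 10.4 CPM in sgBACH1 and 0, 0 and 0.471 CPM in sgCont. Their log2 fold changes were 5.19 ± 0.22, 2.98 ± 0.19 and 6.03 ± 0.58 (SE), and for none of them did a control library reach a knockout library. *REG4*, a secreted lectin of intestinal and gastric tumours, rose from 5.02 ± 1.33 to 44.3 ± 3.53 CPM (SD, n = 3 per group), *LYZ* stood at 803, 737 and 659 CPM in sgBACH1 and 69.3, 54.5 and 54.3 CPM in sgCont (log2 3.62 ± 0.10), and *AGR2*, a disulfide isomerase needed for mucin folding, rose by 1.06 ± 0.09. Members of the list also fell: *DMBT1*, a scavenger protein of mucus, *SLPI*, the secretory leukocyte protease inhibitor (from 140.0 ± 14.5 to 28.99 ± 3.67 CPM, SD, n = 3 per group; chosen after its values were seen), and *CREB3L1* (-0.997). Of 16 tested members 7 rose, 4 fell and 5 did not pass (median log2 fold change 0.45). *TFF1* stood at 5.39 without sgCont replicate 1 and had 0 counts in the rest of the group without sgCont replicate 3. *DMBT1* had 0 counts in the rest of the group without sgBACH1 replicate 3. *TFF1* and *DMBT1* stood at 7.12 and -6.04 with limma-voom.

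Surface antigens of carcinoma cells moved in both directions. *CEACAM6*, an adhesion molecule of the carcinoembryonic antigen family, stood at 1716, 1565 and 1569 CPM in sgBACH1 and 303, 267 and 277 CPM in sgCont. *CEACAM5*, the antigen itself, stood at 124, 103 and 117 CPM in sgBACH1 and 5.304, 2.604 and 2.65 CPM in sgCont. The groups were far apart for both (log2 2.52 ± 0.07 and 4.99 ± 0.18), though the family's similar sequences may share reads. *CEACAM1* and *EPCAM* rose by 1.02 and 0.54. The tetraspanin *TSPAN8* fell from 1115 ± 89.7 to 654 ± 63.5 CPM (SD, n = 3 per group, log2 -0.77), and *MSLN*, mesothelin, in a shifted window of chromosome 16, fell by 0.61 on that scale. The list's 12 tested members held 4 rising and 4 falling. The list of CEACAM family, mesothelin and carcinoma surface antigens had 2 falling refitted without genes in shifted windows.

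Genes of intestinal and endodermal identity rose more often than they fell. *HNF4A*, a nuclear receptor that drives gut and liver genes, stood at 209, 203 and 213 CPM in sgBACH1 and 95.2, 91.01 and 98.7 CPM in sgCont, with *HNF4G* rising by 0.8998 ± 0.12 and *FOXA1*, a pioneer factor, by 1.37 ± 0.12. *ONECUT3* rose from 6.79 ± 1.03 to 40.9 ± 4.402 CPM (SD, n = 3 per group, log2 2.595 ± 0.17), *SOX9*, a ductal progenitor factor, by 0.62 and *ELF3*, an epithelial ETS factor, by 0.46. *GATA6* and *PDX1*, which act in pancreatic development, were not called (log2 0.02 and 0.93). Factors that fell included *GATA4* (-0.55) and *OVOL1* (-2.57), the latter low at means of 0.203 CPM in sgBACH1 and 1.25 CPM in sgCont. In this list 10 rose, 3 fell and 14 did not pass, and the median log2 fold change was 0.37. Of brush border genes, *VIL1*, villin, stood at 491, 484 and 491 CPM in sgBACH1 and 234, 247 and 234 CPM in sgCont (log2 1.04 ± 0.07), and *DPP4*, a membrane peptidase, *LGALS4*, an intestinal galectin, and *PLS1*, an actin bundler, rose by 1.07, 0.58 and 0.52, while the stem cell receptor *LGR5* fell (-0.8000). Their list had 6 rising and 1 falling of 18. The list of epithelial and endodermal transcription factors had 0 falling without sgBACH1 replicate 1 or 3 or sgCont replicate 3, and 1 falling without sgBACH1 replicate 2.

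Ductal and transport genes were more often lower. Of 13 ductal genes tested 2 rose, 6 fell and 5 did not pass, and the median log2 fold change was -0.32. Those that rose were *SOX9* (0.62), also listed with the endodermal factors above, and *NHERF1* (0.47). *CA2* and *CA12* are in both the ductal and the transport list, so the lists are not separate. The members of the list summed to 4010.0, 4100.0 and 4075 CPM in sgBACH1 and 5002, 5120.0 and 5189 CPM in sgCont. *KRT19* and *TSPAN8* carry most of these sums, with means of 2357 and 654 CPM in sgBACH1 and 2945 and 1115 CPM in sgCont. The sums therefore say little about the other ductal genes. *CA12*, a membrane carbonic anhydrase, stood at 6.65, 13.00 and 9.69 CPM in sgBACH1 and 39.9, 30.5 and 43.3 CPM in sgCont, and its cytosolic relatives *CA2* and *CA13* fell by 1.33 and 2.34 on the log2 scale. *SLC14A1*, a urea channel, fell from 17.1 ± 1.84 to 0.528 ± 0.345 CPM (SD, n = 3 per group, log2 -5.01 ± 0.36). For transport genes as a list, of 20 tested members 2 rose, 11 fell and 7 did not pass (median log2 fold change -0.33). The exceptions that rose were *SLC9A2*, a sodium-proton exchanger, from 2.17 ± 0.302 to 23.4 ± 3.27 CPM (SD, n = 3 per group, log2 3.42 ± 0.23), and *KCNE3*, a potassium channel subunit of secretory epithelia, with 241 counts over sgBACH1 and 0 over sgCont, which is at least 75.6-fold higher when 3 counts are taken as the floor of a group. Of 19 acinar genes 2 passed the filter, and of 6 endocrine and neuroendocrine genes tested 2 rose, among them *SYT13*, a synaptotagmin (29.6, 28.7 and 30.9 CPM in sgBACH1 and 0.7501, 0.985 and 0.354 CPM in sgCont; log2 5.42 ± 0.27). The list of endocrine and neuroendocrine had 1 rising without sgBACH1 replicate 1, 2 or 3 or sgCont replicate 2 or 3, and 1 rising with RLE scaling, with no filter, with a minimum mean log2 CPM of 1, with limma-voom, with the replicate block, refitted without genes in shifted windows or in a fit of all 12 libraries.

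Junction genes rose more often than they fell, and keratins fell more often than they rose. *CDH1*, E-cadherin, stood at 121, 142 and 127 CPM in sgBACH1 and 88.8, 86.2 and 86.6 CPM in sgCont. *OCLN*, occludin, stood at 66.4, 45.4 and 58.6 CPM in sgBACH1 and 25.8, 25.1 and 34.2 CPM in sgCont. *CLDN1* stood at 171, 158 and 168 CPM in sgBACH1 and 88.9, 88.4 and 85.9 CPM in sgCont. None of the 3 had overlapping groups, with log2 fold changes of 0.57 ± 0.09, 0.998 ± 0.15 and 0.92 ± 0.08 (SE). *CLDN3* and *CLDN7* rose by 0.84 and 0.76, *CLDN4* and the scaffold *TJP1* were not called, and *CDH3*, P-cadherin, fell (-1.104). Of 23 tested members 10 rose, 1 fell and 12 did not pass (median log2 fold change 0.17). Desmosomal genes were divided, 4 rising and 4 falling of 14: the desmosomal cadherins *DSG2* (0.68), *DSC2* (0.67) and *DSG3* (from 4.38 ± 0.963 to 38.9 ± 2.25 CPM, SD, n = 3 per group) and desmoplakin *DSP* (0.56) rose and plakoglobin *JUP* fell (-0.35). *CLDN4* was called without sgCont replicate 3. The list of epithelial junctions had 2 falling without sgCont replicate 2 or 3, and 2 falling with a minimum mean log2 CPM of 1, with DESeq2 or with the replicate block. The list of desmosomes and hemidesmosomes had 2 falling without sgBACH1 replicate 1 or 2 or sgCont replicate 3, and 2 falling in a fit of all 12 libraries.

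The keratin list summed to 11340.0, 12800.0 and 12940.0 CPM in sgBACH1 and 18630.0, 18750.0 and 19880.0 CPM in sgCont, lower in each knockout library than in any control library. *KRT8* stood at 6183, 7291 and 7292 CPM in sgBACH1 and 10481, 10923 and 11322 CPM in sgCont. *KRT18* stood at 2851, 3025 and 3058 CPM in sgBACH1 and 5015, 4559 and 5374 CPM in sgCont. Both lie in a shifted window of chromosome 12 with a median of -0.34, and their log2 fold changes were -0.66 ± 0.06 and -0.74 ± 0.06. *KRT80* stood at 22.2, 28.6 and 33.1 CPM in sgBACH1 and 271, 275 and 309 CPM in sgCont, log2 -3.35 ± 0.11, *KRT7* and *KRT16* fell by 1.81 and 2.16, and *KRT19* by 0.32. Of 9 tested members 1 rose, 6 fell and 2 did not pass (median log2 fold change -0.66). The list of keratins had 0 rising without sgBACH1 replicate 1, 2 or 3 or sgCont replicate 1 or 3.

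Mesenchymal genes did not move as a block. *AXL*, a receptor kinase of invasive cells, stood at 271, 264 and 269.8 CPM in sgBACH1 and 480.0, 471 and 520.4 CPM in sgCont. *CAV1*, caveolin 1, stood at 122, 139.8 and 126 CPM in sgBACH1 and 353, 373 and 353 CPM in sgCont. Both groups were apart (log2 -0.87 ± 0.07 and -1.48 ± 0.08), as were those of *LUM*, 50.3, 50.9 and 44.9 CPM in sgBACH1 and 113, 136 and 119.6 CPM in sgCont (log2 -1.34 ± 0.10). Vimentin, *VIM*, was not called at 1963, 2057 and 2094 CPM in sgBACH1 and 2143, 2173 and 2204 CPM in sgCont, and *S100A4* rose from 2262 ± 73.7 to 3644 ± 119 CPM (SD, n = 3 per group, log2 0.69). *CDH2* and *FN1*, classic mesenchymal markers, had at most 7 counts over either group. Of 12 tested members 2 rose, 6 fell and 4 did not pass (median log2 fold change -0.26). Transcription factors of the epithelial-mesenchymal transition were few: *ZEB1* and *SNAI2* were not called (log2 -0.15 and -0.07), *SNAI1* and *ZEB2* did not pass the filter, and 2 of 8 tested rose, among them *ID1* (0.29), an inhibitor of helix-loop-helix factors. Calls were lost for *ID1* without sgBACH1 replicate 1 or 2 or sgCont replicate 1. *ID1* lost its call in a fit of all 12 libraries. The list of mesenchymal and EMT markers had 1 rising without sgBACH1 replicate 1 or 3 or sgCont replicate 2. The list of EMT transcription factors had 0 rising without sgBACH1 replicate 1 or 2, and 1 rising without sgCont replicate 1 or 3, and 1 rising with limma-voom or in a fit of all 12 libraries.

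In TGF-beta signalling the ligand *TGFB2* stood at 14.5, 13.6 and 10.5 CPM in sgBACH1 and 57.1, 63.8 and 53.6 CPM in sgCont, and the log2 fold change was -2.18 ± 0.15 (SE shown; adjusted p by edgeR = 4.28e-11). The receptor *TGFBR2* rose by 0.24. The latent binding proteins went opposite ways, *LTBP1* up from 23.4 ± 6.004 to 64.2 ± 1.27 CPM and *LTBP2* down from 11.8 ± 3.67 to 2.76 ± 1.35 CPM (SD, n = 3 per group). *GDF15*, a stress-induced family member, rose from 1.57 ± 0.384 to 14.96 ± 1.07 CPM (SD, n = 3 per group, log2 3.24 ± 0.28), and the inhibitors *SMAD6* and *NOG* fell (-0.81 and -1.81). Altogether 7 rose, 10 fell and 15 did not pass, and the median log2 fold change was -0.001 among 32 members.

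Falls outnumbered rises in the list of Hippo pathway members and targets of YAP and TEAD, its outputs that respond to cell density and tension. Of 34 tested members 5 rose, 20 fell and 9 did not pass (median log2 fold change -0.38). Over all tested genes 11.3% rose and 12.3% fell, and in the smaller keratin list 6 of 9 fell. *ANKRD1*, a widely used reporter of YAP activity, stood at 0.786, 0.435 and 0.964 CPM in sgBACH1 and 62.2, 46.1 and 55.3 CPM in sgCont (-6.18 ± 0.23 on the log2 scale, SE shown; adjusted p by edgeR = 5.49e-16). *CCN1* stood at 16.1, 15.4 and 20.1 CPM in sgBACH1 and 60.6, 63.7 and 97.5 CPM in sgCont and *CCN2*, its relative, fell by 0.72. The motin *AMOTL1* (25.2, 26.3 and 24.4 CPM in sgBACH1 and 105, 107 and 107 CPM in sgCont), the phosphatase *PTPN14* (-1.06) and the giant cadherin *FAT4* (-4.61), which restrain YAP and are themselves in the list, fell too. *YAP1* was not called at 182, 174 and 185 CPM in sgBACH1 and 208, 185 and 183 CPM in sgCont, and its partner *WWTR1* fell by 0.35 on the log2 scale, in a window with a median of -0.41. Of the members that rose, *F3*, tissue factor, went from 98.2 ± 14.6 to 157 ± 10.1 CPM (SD, n = 3 per group). Calls were lost for *WWTR1* without sgBACH1 replicate 1 or 2 or sgCont replicate 1. *FAT4* stood at -5.53 without sgBACH1 replicate 1 and stood at -4.004 without sgBACH1 replicate 3. *FAT4* stood at -5.35 with limma-voom.

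**Figure D3:**
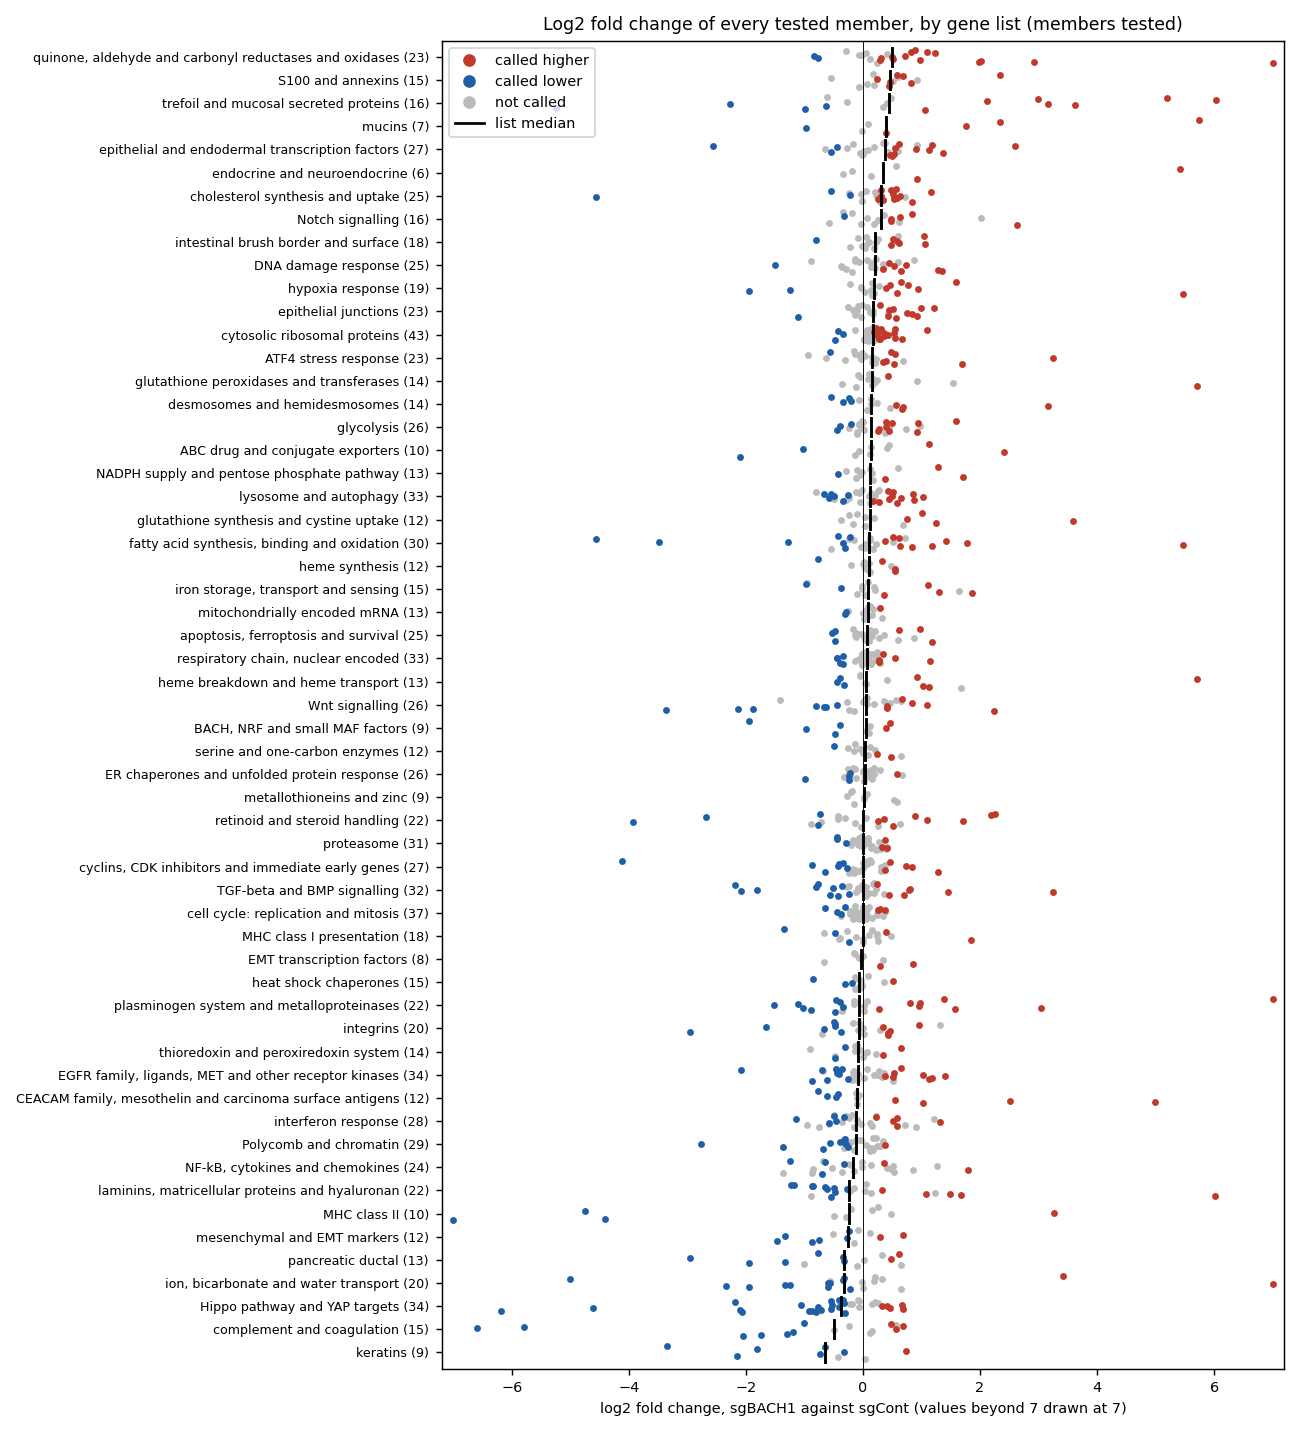
Log2 fold change (sgBACH1 against sgCont, x axis) of every tested member of the lists with at least 5 tested members, ordered by list median (black bar). Red and blue points are genes called higher and lower by edgeR, grey points are not called, and values beyond 7 are drawn at 7. Reductases, S100 proteins, trefoil and mucosal proteins lie at the top and keratins, complement and Hippo genes at the bottom, while most lists hold calls in both directions.

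Matrix and adhesion genes were more often lower, with large exceptions. *CEMIP*, a hyaluronan-degrading protein, stood at 196, 184 and 192 CPM in sgBACH1 and 2.52, 3.17 and 3.18 CPM in sgCont (log2 6.02 ± 0.12), and the hyaluronan synthases *HAS2* and *HAS3* rose by 1.07 and 1.48, as did *COL18A1* (1.67). Thrombospondin 1, *THBS1*, fell from 175 ± 12.1 to 96.9 ± 3.84 CPM and tenascin, *TNC*, from 35.3 ± 7.34 to 15.5 ± 4.79 CPM (SD, n = 3 per group). In this list 5 rose, 10 fell and 7 did not pass, and the median log2 fold change was -0.25. Among integrins *ITGA5*, the fibronectin receptor chain, stood at 2.78, 3.79 and 2.36 CPM in sgBACH1 and 21.2, 22.2 and 26.1 CPM in sgCont (log2 -2.96 ± 0.23), in a shifted window with a median of -0.34. *ITGB2* and *ITGAV* fell (-1.66 and -0.66) while *ITGB6*, *ITGA6* and *ITGB4*, chains of epithelial integrins, rose by 0.96, 0.45 and 0.34. The integrin list had 5 rising and 7 falling of 20.

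The plasminogen activators fell and kallikreins rose. *PLAU*, urokinase, stood at 79.8, 97.8 and 91.8 CPM in sgBACH1 and 188, 184 and 212 CPM in sgCont. *PLAT*, the tissue-type activator, stood at 128, 121 and 139 CPM in sgBACH1 and 384, 339 and 391 CPM in sgCont. Neither pair of groups overlapped (log2 -1.11 ± 0.09 and -1.52 ± 0.08), and the urokinase receptor *PLAUR* was not called. *KLK6* and *KLK10*, secreted serine proteases, rose from 12.3 ± 0.504 to 101 ± 3.28 CPM and from 289 ± 23.01 to 859 ± 30.4 CPM (SD, n = 3 per group) in a shifted window of chromosome 19, by 3.04 and 1.57 on the log2 scale against a window median of 0.39. *TMPRSS4*, a membrane serine protease chosen after its values were seen, had 126 counts over sgBACH1 and 0 over sgCont, or at least 39.5-fold higher by the same floor. The list had 8 rising and 8 falling of 22.

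Receptor kinases and their ligands moved in both directions. *EGFR* and *MET* fell by 0.25 and 0.42 on the log2 scale, *ERBB3*, in a shifted window of chromosome 12 with a median of -0.34, rose by 0.505, and *FGFR4* rose from 73.3 ± 7.81 to 149 ± 8.03 CPM (SD, n = 3 per group). *EPHB2* rose by 1.17, and *PDGFB*, a growth factor, stood at 8.23, 13.4 and 6.31 CPM in sgBACH1 and 40.7, 36.95 and 39.7 CPM in sgCont (log2 -2.08 ± 0.20). That list had 8 rising and 10 falling of 34. Of 16 Notch genes 5 rose, 1 fell and 10 did not pass, and the median log2 fold change was 0.31: the receptor *NOTCH1*, the ligand *JAG1* and the targets *NRARP* and *LFNG* rose (0.63, 0.47, 0.83 and 0.49), *NOTCH2* fell (-0.33) and *HES1* was not called. Wnt genes numbered 6 rising and 7 falling of 26. *AXIN2*, a feedback target, rose from 3.07 ± 1.14 to 14.8 ± 5.61 CPM, and the receptor *FZD1* fell from 58.4 ± 11.4 to 13.2 ± 1.04 CPM (SD, n = 3 per group). *MYC* and *CCND1* were not called. *LFNG* lost its call in a fit of all 12 libraries. *CCND1* was called with DESeq2.

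S100 proteins and annexins, calcium-binding proteins abundant in pancreatic cancer, rose in part. Of 15 tested members 7 rose, 0 fell and 8 did not pass (median log2 fold change 0.46). *S100P* stood at 27.4, 28.3 and 28.1 CPM in sgBACH1 and 5.04, 4.72 and 6.84 CPM in sgCont (log2 2.33 ± 0.20). *S100A10* stood at 1283, 1327 and 1237 CPM in sgBACH1 and 727, 766 and 687 CPM in sgCont (log2 0.82 ± 0.07) and its annexin partner *ANXA2* rose by 0.44. *S100A6* and *S100A11* rose by 0.58 and 0.46.

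Glucose uptake and glycolysis rose in part. *SLC2A1*, the glucose transporter, stood at 548, 510.2 and 545 CPM in sgBACH1 and 155, 185 and 196 CPM in sgCont. *PGK1*, on chromosome X in a shifted window, stood at 793, 819.9 and 802 CPM in sgBACH1 and 406, 416 and 441 CPM in sgCont. The log2 fold changes were 1.58 ± 0.08 and 0.94 ± 0.07 (SE), the latter against a window median of 0.64. *PKM* and *GPI* rose by 0.4997 and 0.45 and *LDHA* by 0.27, and in all 9 rose, 3 fell and 14 did not pass, and the median log2 fold change was 0.13. Hypoxia genes numbered 8 rising and 2 falling of 19. *HIF1A* itself was not called, *VEGFA*, *MXI1* and *ANGPTL4* rose by 0.64, 0.78 and 5.47, and *CA9*, the best known target, fell from 86.2 ± 2.61 to 36.2 ± 3.53 CPM (SD, n = 3 per group). *ANGPTL4* stood at 6.32 without sgCont replicate 3. *VEGFA* lost its call in a fit of all 12 libraries. The list of glycolysis had 0 falling without sgBACH1 replicate 1, and 1 falling without sgBACH1 replicate 2 or sgCont replicate 1.

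Cholesterol synthesis rose at many steps by small amounts. Of 25 tested members 13 rose, 3 fell and 9 did not pass (median log2 fold change 0.31). Log2 fold changes in the list ran from -4.555 to 1.164, so its largest change was a fall. *ACAT2*, which makes acetoacetyl-CoA, stood at 82.6, 92.3 and 80.4 CPM in sgBACH1 and 54.01, 44.3 and 44.9 CPM in sgCont, and the groups did not overlap (log2 0.83 ± 0.11). *HMGCS1* and *IDI1*, of later steps, rose by 0.58 and 0.63, and *NSDHL*, on chromosome X in a shifted window, by 1.16 against a window median of 0.74. Of the cholesterol genes, 12 rose and 3 fell among 23 members outside the shifted windows. The regulator *SREBF2* rose by 0.31. For fatty acids 9 rose and 7 fell of 30, with log2 fold changes from -4.555 to 5.468. Of these *SCD*, *ACSL5* and *ELOVL7* rose by 0.51, 0.64 and 1.78 and *FASN* was not called. Retinoid and steroid genes numbered 8 rising and 4 falling of 22: *DHRS9*, a retinol dehydrogenase, rose from 13.2 ± 3.21 to 43.4 ± 2.801 CPM, *RXRA*, the retinoid X receptor, rose by 0.89, and *RARRES1*, a retinoid-induced gene in a shifted window, fell from 71.01 ± 6.905 to 11.01 ± 0.538 CPM (SD, n = 3 per group). The list of fatty acid synthesis, binding and oxidation had 4 falling without sgBACH1 replicate 2 or 3. The list of retinoid and steroid handling had 2 falling refitted without genes in shifted windows.

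Stress and quality control lists differed in how many members were called. Of ATF4 targets 7 rose and 1 fell of 23, with *ASNS*, asparagine synthetase, up by 0.54, *ATF4* itself not called and *DDIT3* not called. For chaperones and the unfolded protein response of the endoplasmic reticulum, of 26 tested members 1 rose, 4 fell and 21 did not pass (median log2 fold change 0.03). There *HSPA5*, the main chaperone, and *XBP1* were not called, *CALR* fell by 0.24 and *HERPUD1* rose by 0.58. Heat shock genes had 1 rising and 3 falling of 15, with *HSPB1* down from 320.4 ± 23.9 to 178 ± 6.96 CPM (SD, n = 3 per group, log2 -0.85). The proteasome had 3 rising and 3 falling of 31. Lysosomal and autophagy genes had 11 rising and 6 falling of 33, and 9 rose and 5 fell among 30 members outside the shifted windows. *SQSTM1*, the autophagy receptor that NRF2 induces, rose by 0.43 and *CTSL*, cathepsin L, by 0.87. Survival genes had 3 rising and 3 falling of 25, and both *BCL2L1* and *GPX4* were not called. *ASNS*, *CALR* and *HERPUD1* lost their calls in a fit of all 12 libraries. *ATF4* was called with upper quartile scaling, with a minimum mean log2 CPM of 1, with DESeq2, with limma-voom, with the replicate block or without sgCont replicate 3. The list of ATF4 stress response had 4 rising without sgBACH1 replicate 2, and 3 rising in a fit of all 12 libraries, and 2 falling without sgCont replicate 1, and 2 falling with RLE scaling or with DESeq2, and 0 falling refitted without genes in shifted windows or in a fit of all 12 libraries. The list of ER chaperones and unfolded protein response had 2 rising with DESeq2 or with limma-voom, and 0 rising in a fit of all 12 libraries, and 2 falling without sgBACH1 replicate 2 or 3, and 2 falling in a fit of all 12 libraries. The list of heat shock chaperones had 2 rising without sgBACH1 replicate 1 or sgCont replicate 3, and 0 rising without sgBACH1 replicate 3 or sgCont replicate 1, and 2 rising with no filter, with a minimum mean log2 CPM of 1, with limma-voom or with the replicate block. The list of proteasome had 5 rising without sgCont replicate 2, and 5 falling without sgCont replicate 2. The list of lysosome and autophagy had 6 rising refitted without genes in shifted windows, and 2 falling without sgBACH1 replicate 2, and 3 falling without sgCont replicate 3. The list of apoptosis, ferroptosis and survival had 1 rising refitted without genes in shifted windows.

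MHC class II genes, low in both groups, included large falls. *CD74*, the invariant chain of MHC class II, had 575 counts over sgCont and 0 over sgBACH1, at least 204.0-fold lower with a floor of 3 counts for a group's sum. *HLA-DRA* stood at 0.302, 0.249 and 0 CPM in sgBACH1 and 6.91, 2.39 and 5.19 CPM in sgCont. *CIITA*, the class II master regulator, in a shifted window, stood at 0.0605, 0.0622 and 0.337 CPM in sgBACH1 and 4.66, 3.801 and 2.36 CPM in sgCont. The groups did not overlap for either (log2 -4.75 ± 0.70 and -4.41 ± 0.71), and *HLA-DMB*, of the same family, rose from 0.365 to 3.58 CPM. Of 10 tested members 1 rose, 3 fell and 6 did not pass (median log2 fold change -0.25). Of class I genes, *B2M*, the shared light chain, was not called (log2 -0.01), and 2 rose and 3 fell of 18. Of interferon genes 5 rose and 5 fell of 28, among them *ISG20*, an exonuclease, down by 1.14 and *IFITM1* up by 1.32. *HLA-DRA* stood at -5.34 without sgBACH1 replicate 1 and stood at -4.098 without sgBACH1 replicate 3. *CIITA* stood at -5.71 without sgBACH1 replicate 3. *HLA-DMB* stood at 2.65 without sgCont replicate 1 and stood at 5.15 without sgCont replicate 3. *HLA-DMB* stood at 4.34 with limma-voom. The list of MHC class I presentation had 0 rising without sgBACH1 replicate 1, 2 or 3 or sgCont replicate 1 or 2, and 1 rising with no filter, with a minimum mean log2 CPM of 1, with the replicate block or refitted without genes in shifted windows. The list of interferon response had 3 rising without sgBACH1 replicate 1 or 2, and 2 rising without sgBACH1 replicate 3, and 3 falling without sgBACH1 replicate 3.

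Complement and coagulation genes fell more often than they rose. Of 15 tested members 3 rose, 7 fell and 5 did not pass (median log2 fold change -0.504). *CFI*, a protease that cuts active complement fragments, stood at 0.302, 0.0622 and 0 CPM in sgBACH1 and 9.001, 5.14 and 6.07 CPM in sgCont. The knockout libraries lay far below the controls (log2 -5.796 ± 0.65). *C3*, the central component, fell from 4.94 ± 1.41 to 1.19 ± 0.336 CPM, and *CD55*, a membrane inhibitor, from 74.1 ± 10.2 to 32.3 ± 2.74 CPM (SD, n = 3 per group, log2 -2.04 and -1.199). NF-kB and cytokine genes had 2 rising and 4 falling of 24, with the feedback inhibitor *TNFAIP3* down from 32.2 ± 1.37 to 13.6 ± 0.654 CPM and the chemokine *CXCL3* up from 1.95 ± 1.19 to 6.78 ± 2.09 CPM (SD, n = 3 per group); *CXCL8* was not called and *IL6* had 1 count in all. *CFI* stood at -7.61 without sgBACH1 replicate 1 and stood at -5.14 without sgBACH1 replicate 3. The list of NF-kB, cytokines and chemokines had 1 rising without sgBACH1 replicate 3 or sgCont replicate 2 or 3, and 2 falling without sgBACH1 replicate 1.

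Of replication and mitosis genes 18.9% were called, against 23.5% of all tested genes. Of 37 tested members 3 rose, 4 fell and 30 did not pass (median log2 fold change -0.004). *MKI67*, the proliferation marker, stood at 690.5, 647 and 661 CPM in sgBACH1 and 698, 601 and 602 CPM in sgCont and was not called, *PCNA* and *MCM5*, of DNA replication, rose by 0.28 and 0.38, and *PLK1*, in a shifted window of chromosome 16, and *TPX2*, of the mitotic spindle, fell by 0.64 and 0.31. *CDK6* stood at 273, 277 and 259 CPM in sgBACH1 and 100.4, 117 and 117 CPM in sgCont (log2 1.27 ± 0.08) and *CDK4* fell by 0.65. Cyclins, inhibitors and immediate early genes numbered 5 rising and 7 falling of 27, with *FOS* up by 0.74 and *FOSL1* down by 0.88. Of 25 DNA damage response genes 7 rose and 1 fell: *MDM2* rose by 0.53 and *PLK2* fell from 405 ± 12.6 to 143 ± 6.45 CPM (SD, n = 3 per group), while *CDKN1A* was not called. *PCNA* lost its call in a fit of all 12 libraries. The list of cell cycle: replication and mitosis had 1 rising in a fit of all 12 libraries, and 2 falling without sgBACH1 replicate 2 or sgCont replicate 3, and 1 falling refitted without genes in shifted windows.

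Ribosomal protein genes had 17 rising and 3 falling of 43, and 12 rose and 1 fell among 35 members outside the shifted windows. *RPS4X*, in a shifted window of chromosome X with a median of 0.64, rose by 1.09. The nuclear respiratory chain had 5 rising and 5 falling of 33, and 4 rose and 1 fell among 27 members outside the shifted windows. Mitochondrially encoded mRNAs had 1 rising and 2 falling of 13. Serine and one-carbon enzymes had 2 rising and 1 falling of 12, with *AHCY*, which hydrolyses S-adenosylhomocysteine, up by 0.47 and *SHMT2* down by 0.49. Chromatin genes were more often lower, 1 rising and 9 falling of 29 (median log2 fold change -0.12): *HDAC9*, a class II deacetylase, stood at 8.11, 7.53 and 5.74 CPM in sgBACH1 and 49.8, 49.5 and 45.6 CPM in sgCont (log2 -2.77 ± 0.16), *DNMT3A*, a DNA methyltransferase, fell from 24.1 ± 1.25 to 9.34 ± 0.392 CPM (SD, n = 3 per group), and *SMARCA4* was not called. *SHMT2* lost its call in a fit of all 12 libraries. The list of cytosolic ribosomal proteins had 11 rising refitted without genes in shifted windows, and 1 falling refitted without genes in shifted windows. The list of respiratory chain, nuclear encoded had 3 rising without sgBACH1 replicate 1 or 3 or sgCont replicate 1 or 3, and 2 rising without sgBACH1 replicate 2, and 1 falling refitted without genes in shifted windows. The list of mitochondrially encoded mRNA had 0 rising without sgBACH1 replicate 1 or 3 or sgCont replicate 2, and 2 rising with the replicate block, and 0 rising in a fit of all 12 libraries, and 0 falling without sgBACH1 replicate 2 or 3 or sgCont replicate 1 or 3, and 1 falling refitted without genes in shifted windows or in a fit of all 12 libraries. The list of serine and one-carbon enzymes had 1 rising without sgBACH1 replicate 1 or 3 or sgCont replicate 1, and 0 falling in a fit of all 12 libraries.

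Outside the lists, the largest changes in genes that averaged 1 log2 CPM or more included genes of adhesion, trafficking and proteolysis. *NRCAM*, a neuronal adhesion molecule, stood at 264, 263 and 273 CPM in sgBACH1 and 13.98, 15.4 and 13.9 CPM in sgCont (log2 4.21 ± 0.09). *RAB15*, a small GTPase of endosomes, stood at 120.1, 119 and 109.8 CPM in sgBACH1 and 14.9, 10.4 and 11.6 CPM in sgCont. *SORT1*, sortilin, stood at 68.05, 63.3 and 62.9 CPM in sgBACH1 and 9.64, 2.67 and 6.31 CPM in sgCont. The groups were apart by a wide margin in all 3 (log2 3.23 ± 0.13 for *RAB15* and 3.35 ± 0.23 for *SORT1*). *RIMKLA*, which makes N-acetylaspartylglutamate, rose from 0.0824 ± 0.08902 to 12.4 ± 2.22 CPM, and *CAPN8*, a gastric calpain, from 2.496 ± 0.597 to 21.8 ± 0.934 CPM (SD, n = 3 per group). *ZNF469*, *HYKK*, *TTC9*, *COL5A3*, *MARCHF3*, *KLK8*, *KLK7*, *PRDM1*, *SLC44A4* and *FKBP1B* make up the 15 largest rises, with log2 fold changes from 3.11 to 7.14; *KLK7*, *KLK8* and *ZNF469* lie in shifted windows, the last with a median of -0.45. *RIMKLA* stood at 6.52 without sgCont replicate 1 and stood at 8.36 without sgCont replicate 3. *ZNF469* stood at 5.26 without sgCont replicate 1. *TTC9* stood at 4.21 without sgCont replicate 1 and stood at 5.87 without sgCont replicate 2. *COL5A3* stood at 6.64 without sgCont replicate 3. *MARCHF3* stood at 6.37 without sgCont replicate 3. *SLC44A4* stood at 2.66 without sgBACH1 replicate 1. *COL5A3* and *MARCHF3* stood at 5.06 and 4.804 with limma-voom.

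Among falls outside the lists, *QPRT*, which makes the NAD precursor nicotinate mononucleotide from quinolinate, stood at 9.38, 8.96 and 9.11 CPM in sgBACH1 and 98.6, 98.5 and 114 CPM in sgCont (log2 -3.503 ± 0.12). *HSPA12A*, an atypical chaperone, fell from 39.2 ± 1.95 to 2.58 ± 0.3298 CPM, *GASK1B* from 27.6 ± 3.02 to 1.09 ± 0.868 CPM, *FAM171A1* from 21.7 ± 3.69 to 1.32 ± 0.274 CPM and *NMUR2*, the neuromedin U receptor, from 19.9 ± 2.91 to 0.857 ± 0.488 CPM (SD, n = 3 per group). *APOBEC3G*, a cytidine deaminase that restricts retroviruses, stood at 1.94, 1.68 and 1.45 CPM in sgBACH1 and 18.3, 21.9 and 17.6 CPM in sgCont (log2 -3.51 ± 0.26). The other 9 of the 15 largest falls were *HAVCR1*, *PTPRM*, *CPED1*, *CLCN4*, *ITGBL1*, *LDLRAD4*, *LRRN4*, *MARCHF4* and *MOB3B*, from -5.51 to -3.39 on the log2 scale, and their means in sgBACH1 were 0.1104 to 0.943 CPM. *GASK1B* stood at -5.42 without sgBACH1 replicate 2. *CLCN4* stood at -4.56 without sgBACH1 replicate 3. *MOB3B* stood at -3.99 without sgBACH1 replicate 2.

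The siRNA experiment, in which 23.9% of 14591 genes were called, shares no libraries with the knockout. Of 1076 list members tested in both, 211 were called in both, 126 in the same and 85 in the opposite direction, and 54 of the 85 were higher in the knockout. Over all 13845 genes tested in both, 1155 were called in both, 667 in the same and 488 in the opposite direction, a split close to that of the members. Within siCont, replicate 2 stood apart: chi-square per degree of freedom over genes was 27.3 and 31.9 against replicates 1 and 3, which gave 8.09 between them. Without it siRNA calls over the genes tested in both rose from 3418 to 5024, and 290 members were called in both, 169 in the same and 121 in the opposite direction (957 and 725 over all genes). The difference of the responses, tested in 1 fit of all 12 libraries, was called in 23.6% of 15644 genes. *HMOX1* rose in both (log2 5.6998 in the knockout and 4.705 with siRNA), as did *GCLM* (3.596 and 2.64), *AKR1C1* (1.99 and 2.02), *NQO1* (1.09 and 0.96) and *FTH1* (1.86 and 0.95). Without siCont replicate 2 the siRNA values of these genes, in the same order, were 4.68, 2.55, 1.95, 0.81 and 1.04. With all siRNA libraries *GPX2* (5.71 and 2.05), *GCLC* (1.24 and 1.52), *FTL* (1.299 and 1.04) and *SLC40A1* (1.12 and 1.16) also rose in both. So did *ME1*, *TKT*, *AKR1B10*, *AKR1C2*, *EPHX1* and *ABCC2*, while *HMOX2* and *NNT* fell in both. Some other redox, heme and iron genes described above were called in opposite directions. With all siRNA libraries, *SLC7A11* (1.01 in the knockout and -1.26 with siRNA), *TXN* (0.65 and -2.02) and *GLRX* (0.75 and -0.99) fell with siRNA. So did *ABCG2* (1.13 and -0.55), while *STEAP3* fell in the knockout and rose with siRNA (-0.98 and 1.05).

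Several lists set side by side with the siRNA experiment held called differences. The siRNA calls among reductases and oxidases were 10 rising and 4 falling (10 and 7 without siCont replicate 2). Glycolysis had 2 rising and 10 falling (3 and 11 without siCont replicate 2) with siRNA, and the difference was called for 11 higher and 2 lower in the knockout (11 and 2 without siCont replicate 2). Cholesterol genes had 0 rising and 6 falling (1 and 10 without siCont replicate 2) with siRNA and a called difference for 8 higher and 1 lower in the knockout (12 and 1 without siCont replicate 2). For S100 proteins and annexins the siRNA calls were 0 rising and 3 falling (4 and 4 without siCont replicate 2) and the difference was called for 8 higher and 0 lower in the knockout (8 and 2 without siCont replicate 2). Hippo and YAP genes had 8 rising and 8 falling (11 and 9 without siCont replicate 2) with siRNA, and the difference was called for 7 higher and 16 lower in the knockout (8 and 19 without siCont replicate 2). Stress genes of the endoplasmic reticulum, had 1 rising and 16 falling (2 and 17 without siCont replicate 2) with siRNA and a called difference for 13 higher and 1 lower in the knockout (14 and 1 without siCont replicate 2). For the junction list, where siRNA gave 9 rising and 3 falling (13 and 3 without siCont replicate 2), the difference was called for 4 higher and 4 lower in the knockout (5 and 5 without siCont replicate 2). Among the largest differences of list members were *CD74*, *MUC5B* (log2 5.74 in the knockout and -2.31 with siRNA), *CEMIP* (6.02 and -0.74), *TFF1* (6.03 and -0.54) and *SYT13* (5.42 and -1.07). The siRNA values without siCont replicate 2 were -2.06, -0.49, 0.14 and -0.77 for the last 4. The experiments differ in agent, duration and selection, and which of these goes with a difference cannot be told apart.

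**Figure D4:**
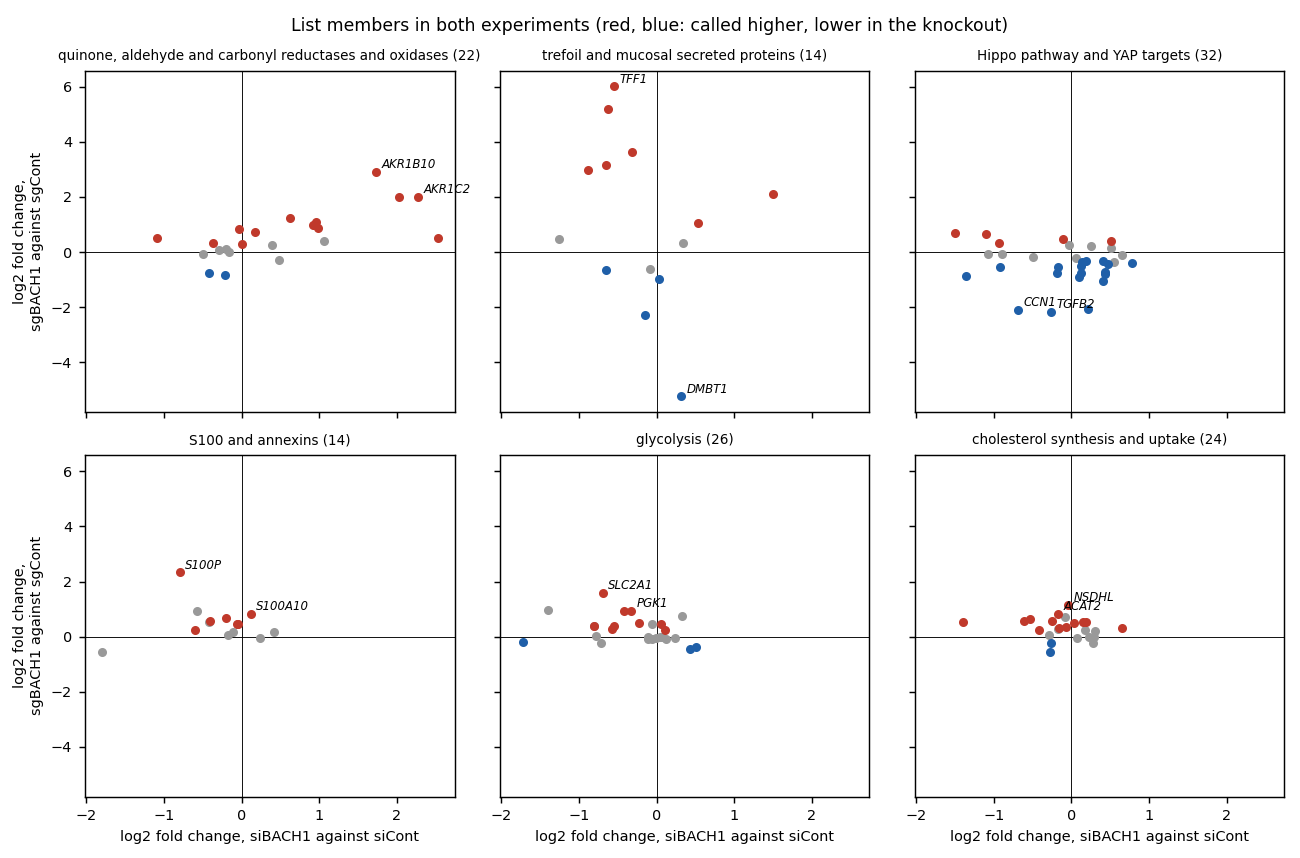
Log2 fold change in the knockout (y axis) against that with siRNA (x axis) of the members of 6 lists tested in both experiments, 1 panel a list with the number of members in brackets. Red and blue points are called higher and lower in the knockout and grey points are not called. Of the 13 reductases and oxidases called higher in the knockout 10 lie to the right of 0, against 2 of 7 trefoil and mucosal, 1 of 7 S100 and annexin and 2 of 9 glycolysis genes. The siRNA values include siCont replicate 2, which stood apart, and these sides were not counted without it. Without it *TFF1* moved from -0.54 to 0.14 with siRNA. A side of 0 is not a call.

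Some counts are less certain than their replicate spread shows. Of 271 tested genes named here and checked for overlaps, 95 share exon bases with an opposite-strand gene and 37 with one on the same strand. No source used here gives whether counting used strand. *CEMIP*, *MUC5B*, *LYZ*, *KRT8*, *FTH1* and *NQO1* are among the former.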

How the data were processed

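RNA-seq of 12 AsPC-1 libraries in 4 groups of 3 was used as deposited: whole-number counts per Ensembl gene, not normalized. Counting was done with HTSeq 0.9.1, and SAMtools and the build hg19 are named, per the submitters' processing notes. No source used here gives the aligner, the annotation or the use of strand. Gene positions are from GENCODE 29 on GRCh38, matched by identifier, and promoters are from RefSeq on GRCh38.p14.

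Counts of the 6 knockout libraries were filtered (filterByExpr, minimum count 10), scaled by TMM and tested two-sided with edgeR 4.0.16 quasi-likelihood (R 4.3.3), with Benjamini-Hochberg adjustment over all tested genes and calls below 0.05. SE is the log2 fold change over the root of F. The difference between the experiments was tested in a fit of all 12 libraries. Alternatives were DESeq2 1.42.0, limma 3.58.1 voom, other scalings and filters, a replicate block, removal of genes in shifted chromosome windows and each library left out. One alternative, without siCont replicate 2 for list counts, was chosen after seeing the data. The fit was tested on simulated data.

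The gene lists and their members were chosen with earlier results of these data known. Genes named are drawn from BACH1, the preset central members of each list, the 6 largest called changes a list (mean log2 CPM at least 1, groups not overlapping), the 15 largest rises and falls outside the lists by the same limits, and the 12 list members with the largest differences between experiments. Exceptions are stated, and some genes are not reported here. Chromosome windows hold about 100 neighbouring tested genes and count as shifted when their median log2 fold change is beyond 0.3.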

Additional observations from a re-analysis of the deposited data

Results flagged for a closer look

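List members with a large called difference between the knockout and the siRNA response are given here, each as knockout minus siRNA on the log2 scale from 1 edgeR fit of all 12 libraries, with the value without siCont replicate 2 in brackets. Lower in the knockout response were *CD74*, at -11.11 (-10.61), *DMBT1*, at -5.56 (-5.38), *FAT4*, at -5.54 (-5.06), and *CFI*, at -4.82 (-4.903). *CD74* is at 0 counts in sgBACH1, so its fitted value depends on the prior count, and *FAT4* did not pass the filter in the siRNA libraries alone. Higher in the knockout response were *MUC5B*, at 8.04 (7.796), *CEMIP*, at 6.76 (6.54), *TFF1*, at 6.56 (5.88), *SYT13*, at 6.48 (6.19), *ANGPTL4*, at 6.13 (5.76), *TFF3*, at 5.81 (5.54), and *CEACAM5*, at 4.24 (4.28). *CFI* and *CEACAM5* were called in the same direction in both experiments and differ in size, while *MUC5B* and *SYT13* were called in opposite directions.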

How the results depend on the processing

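The count of 3407 called genes was 3407 with RLE and 3401 with upper quartile scaling. No gene called both in the main fit and under another setting changed sign between them. Signs of genes that lost their call were not compared over the whole table. Leaving out 1 library gave 2500 to 3586 calls, lowest without sgBACH1 replicate 1, and the difference between experiments gave 2960 to 4082 calls over all its alternatives. The deviations of same-numbered libraries correlated at -0.003, 0.034 and 0.051, so the numbers were not taken as pairs, and a fit with the replicate block called 1714 genes higher and 1816 lower. Without genes in shifted chromosome windows 1334 rose and 1421 fell, and DESeq2 called 1722 and 1920. Values near 0 that were not called changed sign with 1 library left out. Over these 6 fits the log2 fold changes ran for *MYC* from -0.0019 to 0.13, *SNAI2* from -0.14 to 0.046, *HIF1A* from -0.16 to 0.037, *GATA6* from -0.026 to 0.094, *B2M* from -0.045 to 0.053 and *GSS* from -0.0076 to 0.11. Depth of 14107198 to 20624435 counts a library limits genes near the filter, where a fold change rests on few reads.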

Other observations

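Gene families were summarised after their values were seen, and only some are described. Over all tested genes 11.3% rose, 12.3% fell and 23.5% were called. All 5 tested APOBEC3 genes, cytidine deaminases that act on viral DNA, fell in sgBACH1: *APOBEC3G* by 3.51, *APOBEC3D* by 2.86, *APOBEC3F* by 2.14, *APOBEC3C* by 1.87 and *APOBEC3B* by 0.87 on the log2 scale. The family's genes neighbour each other, similar sequences may share reads, and none lies in a shifted window. Of 7 tested kallikreins 5 rose, with a median log2 fold change of 1.57, all 7 lie in shifted windows of chromosome 19, and 2 of those that rose, *KLK6* and *KLK10*, are the list members described above. Of 5 tested clade B serpins, inhibitors of proteases, 4 rose (median 0.42), and of 10 GALNT genes, which start mucin-type glycosylation, 1 rose and 5 fell (median -0.46). Other families had few calls: 2 rose and 3 fell of 24 HOX genes, and 0 rose and 1 fell of 16 PCDH genes. Of 390 ZNF genes 39 rose and 21 fell, and 118 of the 390 lie in shifted windows. Among gene types, 18 of 100 tested snoRNA genes rose and 0 fell (median 0.50). Of protein-coding genes 27.3% were called against 11.6% of lincRNA genes, and the types were not matched for expression level.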
